A study of Drosophila melanogaster with 3 samples.

Results

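The paralogous genes bab1 and bab2 of Drosophila melanogaster lie next to each other on chromosome arm 3L and encode the bric a brac transcription factors, which carry a BTB domain and bind DNA. Open chromatin at this locus was described from an ATAC-seq peak list of the pupal abdominal epidermis. The window ran from 10 kb below the lower-coordinate end of bab1 to 10 kb above the higher-coordinate end of bab2 (chr3L:1026369-1187276, dm6, 161 kb), and every peak whose summit fell in it was taken. It held 62 of the 34718 peaks in the list. Within the window only the position of the summit decided which peaks were taken, but the locus was chosen with earlier results of these data known.

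The bab genes are best known in the abdomen as repressors of dark pigment. In females they are expressed in the posterior segments and keep these lightly pigmented, while in males the Hox protein Abd-B and the male form of Doublesex lower their expression there and allow the dark tail that gives the species its name. Known abdominal enhancers of the locus lie in the large intron near the bab1 promoter. The genes also act in leg and antenna segmentation and in the terminal filaments of the ovary.

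All samples belonged to 1 group. They were wild-type pupae at 38 to 45 h after puparium formation, with no treatment named in the labels, and 50 abdomens were pooled in each of 3 replicates after the internal organs had been removed by dissection. The labels give neither strain, sex nor segment, so female and male, and anterior and posterior, epidermis cannot be told apart in any value below. The authors deposited 1 peak list for the merged replicates, so no value has a replicate error and no test between groups was possible.

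The height of a peak is given as its fold enrichment, the authors' ratio of overlapping reads at the summit (the pileup) to a local background, each increased by 1. Pileup and background were recovered from the deposited values, and the 95% Poisson intervals of the pileup cover counting error only, since overlapping reads are not independent molecules. Over the 34718 peaks the medians were 2.01 for fold enrichment (middle 50% from 1.73 to 2.40), 149 reads for the pileup and 68.1 reads for the background, which had a floor of 57.2 reads. Of genes that mark the epidermis, such as grh and kkv, 12 of 12 had a summit within 500 bp of a gene end, against 65.6% of all protein-coding genes. Such a summit was also found at 6 of 8 muscle, 4 of 6 neuronal, 4 of 4 hemocyte, 4 of 4 germline, 2 of 4 oenocyte and 2 of 4 gut markers. A summit near the ends of neighbouring genes counts for each of them. The 2 gut markers, LManI and LManII, are such neighbours and had the same value, 3.28. A peak at a gene end thus did not single out the labelled tissue, and the part of other cell types in the bab peaks was not tested.

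bab1 spans chr3L:1036369-1101089 (64.7 kb, locus tag CG9097, 4 RefSeq transcripts) and bab2 spans chr3L:1140429-1177276 (36.8 kb, CG9102, 2 transcripts), with 39.3 kb between them. The gene table used here gives spans without strand or exons, so each gene has a lower and a higher end by coordinate, and a peak inside a gene was not assigned to an exon, intron or UTR. The only other genes meeting the window were the upper part of trio and CG9205, whose upper end at position 1036298 lies next to the lower end of bab1.

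Peaks lay throughout the locus. There were 24 inside bab1, 16 between the genes, 14 inside bab2, 6 in the flank on the bab1 side and 2 in the flank on the bab2 side. Per 10 kb this came to 3.71 peaks inside bab1, 4.07 between the genes and 3.80 inside bab2, and to 3.85 over the whole window, against 2.72 on arm 3L and 2.60 over all arms. Peaks covered 18.7% of the window, with 17.3% inside bab1, 21.3% between the genes and 15.8% inside bab2. Both genes and the sequence between them therefore had like numbers of peaks for their length.

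**Figure D1:**
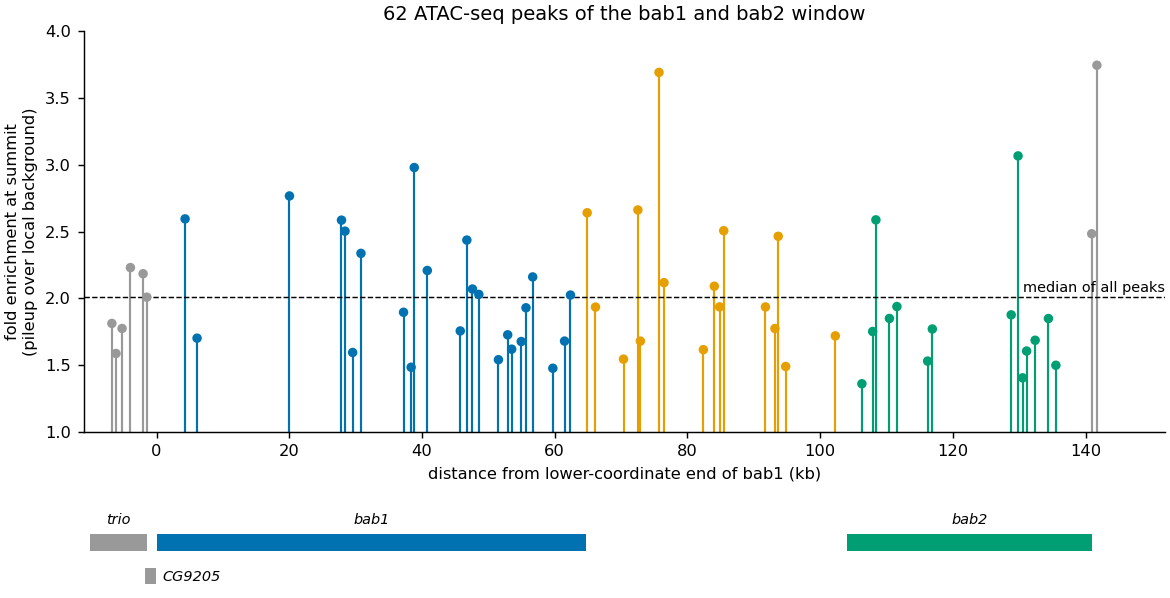
Fold enrichment (vertical axis, ratio of pileup to local background) of the 62 peaks against the distance of their summits from the lower-coordinate end of bab1 (horizontal axis, kb), coloured by segment, with gene spans below and the median of all 34718 peaks dashed. The 3 points above 3 stand beyond the upper end of bab2, between the genes and inside bab2, at 3.75, 3.69 and 3.07.

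Each bab gene had a peak at its higher-coordinate end and none within 500 bp of its lower end. At bab1 this peak covered the annotated end (chr3L:1100586-1101574, summit 173 bp beyond the end), with a fold enrichment of 2.64 and a pileup of 251 reads (95% Poisson interval 221 to 284) over a background of 94.4 reads. At bab2 the peak also covered the annotated end (chr3L:1176989-1177490, summit 19 bp beyond it), with a fold enrichment of 2.48 and a pileup of 166 reads (142 to 193) over a background of 66.3 reads. The fold enrichments of the 2 peaks differed by a factor of 1.06, whereas the pileup was 1.51 times higher at bab1 and the counting intervals did not overlap. The background there was 1.43 times higher as well, so most of the difference in reads did not appear in the ratio.

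The nearest summits to the lower ends were farther away. At bab1 the closest was 1466 bp below that end, at the end of trio, and the closest inside the gene was 4299 bp above it (chr3L:1040141-1040780, fold enrichment 2.59). At bab2 it was a low peak 1773 bp below the end, between the genes (chr3L:1138532-1138742, fold enrichment 1.72). A pair of peaks beyond the lower end of bab1 (chr3L:1034032-1034730, fold enrichment 2.18, and chr3L:1034822-1034984, fold enrichment 2.01) lay within 500 bp of the ends of trio and CG9205, which overlap there. These 2 and the peaks at bab1 and bab2 were the only gene-end peaks, 4 of 62 or 6.45%, against 31.3% of all peaks. The window holds long genes and few gene ends, and the other 58 peaks were distal. The median fold enrichment of those 58 was 1.86, and that of all distal peaks in the list was 1.92.

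The highest peak of the locus stood just outside bab2. It lay at chr3L:1177880-1178871 with its summit 801 bp beyond the upper end of the gene and 782 bp from the peak at that end. Its fold enrichment of 3.75 was above that of 99.6% of all peaks, and its pileup was 245 reads (215 to 278). It was 1.51 times as high as the neighbouring gene-end peak in fold enrichment and 1.48 times in pileup, with backgrounds of 64.7 and 66.3 reads, and the counting intervals of the 2 pileups did not overlap. Above it no summit was found for 10.9 kb. The next one, at position 1188995, lay outside the window.

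The peak of second rank was between the genes at chr3L:1111671-1112476, with its summit 10998 bp beyond the upper end of bab1. Its fold enrichment was 3.69, above 99.5% of all peaks, and its pileup was 233 reads (204 to 265) over a background of 62.4 reads. Compared with the peak at the bab1 end, 10825 bp away, its fold enrichment was 1.40 times higher while its pileup was 0.928 times that peak's, and the 2 counting intervals overlapped. The order of these peaks thus depends on whether reads at the summit or the ratio to the background is used.

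Inside bab2 the highest peak was at chr3L:1165571-1166646, 11081 bp from the upper end of the gene, with a fold enrichment of 3.07 and 209 reads (182 to 239). Inside bab1 the highest was at chr3L:1074917-1075927, 25884 bp from the upper end, with 2.98 and 178 reads (153 to 206). Peaks of fold enrichment 3 or more numbered 3 of 62, or 4.84%, against 6.21% of all peaks. Fold enrichment was above the median of all peaks in 25 of the 62 (40.3%, against 49.8% of all peaks), and the pileup was above its median in 32 (51.6%, against 49.3%). In reads at the summit the peaks of the locus were thus near the middle of the list. In fold enrichment their median was 1.91 (exact 95% binomial interval 1.76 to 2.07). This interval treats neighbouring peaks as independent, and it includes the median of all peaks, 2.01.

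The remaining peaks among the 10 of highest fold enrichment were spread over both genes and the sequence between them. Inside bab1 they were at chr3L:1055413-1056641 (fold enrichment 2.77, 160 reads), at chr3L:1040141-1040780 (2.59, 150 reads) and at chr3L:1063876-1064494 (2.59, 162 reads). Between the genes there was 1 at chr3L:1108666-1109110 (2.66, 176 reads), and inside bab2 1 at chr3L:1144595-1145238 (2.59, 195 reads). The 3 lowest peaks were at chr3L:1142553-1142717 (1.36) and chr3L:1166764-1166963 (1.40) in bab2 and at chr3L:1095936-1096298 (1.48) in bab1. The q-values of the 62 peaks ran from 1.09e-61 to 0.0121.

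Widths ran from 155 to 1229 bp with a median of 405 bp, against 357 bp for all peaks. The widest was the bab1 peak at chr3L:1055413-1056641 with 1229 bp, followed by a peak between the genes at chr3L:1121585-1122679 with 1095 bp (fold enrichment 2.51, 223 reads) and by the highest peak inside bab2 with 1076 bp. Wider peaks were also higher, with Spearman's rho of 0.71 between width and fold enrichment over the 62 peaks and 0.58 over all 34718. The 2 measures share the same reads, and this is a description across peaks of 1 merged library set.

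Inside the gene spans, a larger share of the peaks reached a −log10 q of at least 10 in bab1 than in bab2. The end peak of each gene and the highest peak of the locus have summits outside these spans. They are counted inside neither gene. Inside bab1 the median fold enrichment was 1.98 (range 1.48 to 2.98), the median pileup 151 reads and 13 of 24 peaks had a −log10 q of at least 10. Inside bab2 the medians were 1.76 (range 1.36 to 3.07) and 128 reads, and 3 of 14 peaks reached that q-value. Between the genes the medians were 1.94 and 148.5 reads, and 9 of 16 reached it. Over the window 32 of 62 peaks did, or 51.6%, against 60.4% of all peaks. The ranges of bab1 and bab2 overlapped over most of their length, and without replicates the difference was not tested.

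**Figure D2:**
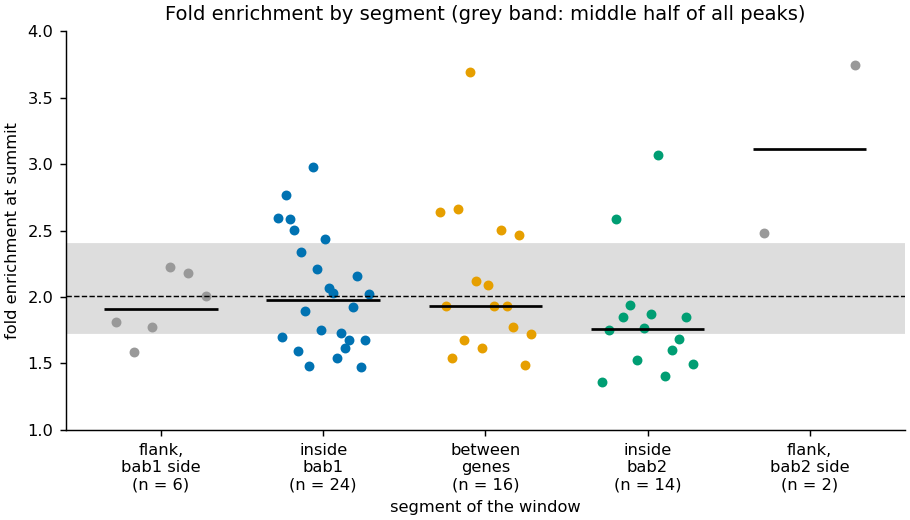
Fold enrichment at the summit (vertical axis, ratio) of each peak in the 5 segments of the window (horizontal axis), with the segment's median as a black bar and all 34718 peaks shown by their median (dashed) and interquartile range (grey). Above the median of all peaks lie 2 of 14 peaks inside bab2 and 12 of 24 inside bab1, against 49.8% of all peaks.

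Peaks were unevenly spread within bab1. The lower part (chr3L:1036369-1068729) held 7 peaks, 2.16 per 10 kb, and the upper part (chr3L:1068730-1101089) held 17, or 5.25 per 10 kb. The few peaks of the lower part had a median fold enrichment of 2.50, against 1.89 in the upper part, but their median pileups were 150 and 152 reads. The difference in ratio lay in the background, whose median was 61.7 reads in the lower part and 86.7 in the upper part. No control library is among the samples, so the background is not a measure independent of the peaks nearby. Its relation to the density of peaks was not tested. In bab2 the lower and upper parts held 7 peaks each.

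The local background rose and fell along the locus. Stretches of neighbouring peaks are given here by whether it was above or below the median of all peaks, 68.1 reads. Within a stretch the change could be gradual. Across the upper part of bab1 it went from 75.9 reads at 1082136 to 109 at 1097856 and was 91.0 at 1102516. From position 1040668 to 1077169 inside bab1 the 11 peaks had backgrounds between 57.2 and 64.2 reads, at or near the floor. From 1082136 to 1102516, across the upper part of bab1 and its upper end, 15 peaks in a row had 75.9 to 109 reads, and the highest background, at the peak with its summit at 1097856, was above that of 96.9% of all peaks. The next 5 peaks, which include the peak of second rank, fell back to 62.4 to 65.5 reads, and 4 peaks from 1118773 to 1121840 were at 85.1 to 88.4 reads. In bab2 the 5 peaks from 1142662 to 1147938 were at 71.8 to 75.5 reads and 4 from 1166890 to 1170774 at 71.7 to 80.9 reads. With the 6 peaks at trio and CG9205, at 90.1 to 97.1 reads, this gave 34 of 62 peaks above the median background of all peaks (54.8%, against 50% of all peaks). At the floor were 6 of the 62, against 26.4% of all peaks.

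**Figure D3:**
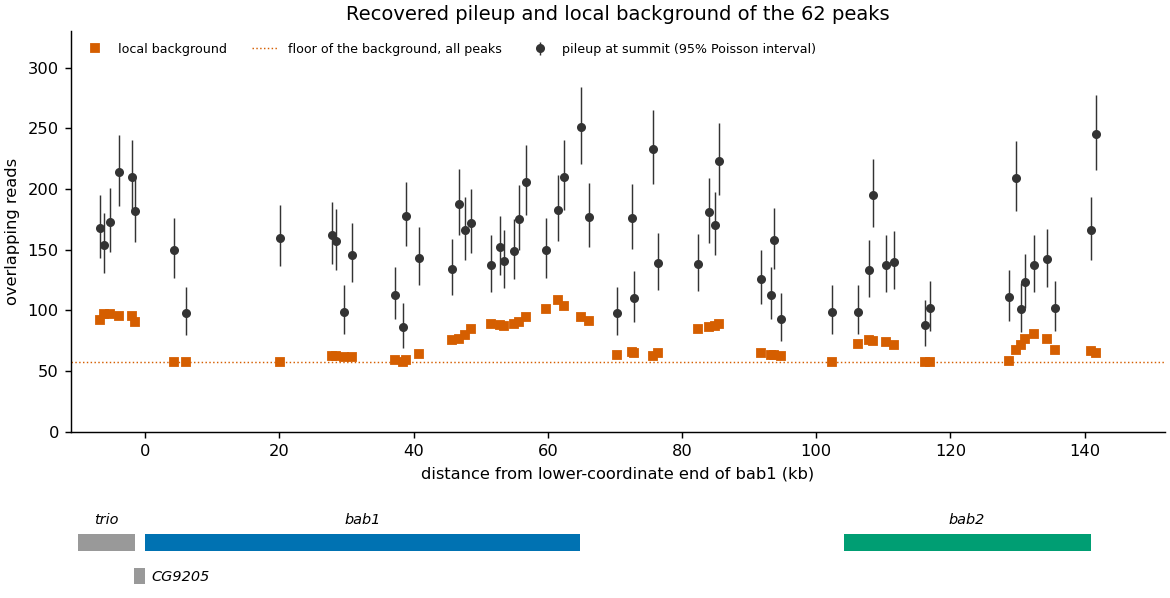
Pileup at the summit (dark points, 95% Poisson interval) and local background (orange squares) in overlapping reads (vertical axis) for the 62 peaks along the locus (horizontal axis, kb from the lower-coordinate end of bab1), with gene spans below. The background is raised across the upper part of bab1, where it reaches 109 reads, and lies at the floor of 57.2 reads over parts of both genes.

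Rank by height depended on this. The 34 peaks with the higher background had a median pileup of 167 reads and a median fold enrichment of 1.85, and the other 28 had 132.5 reads and 2.03. Fold enrichment divides by the background, so at a given pileup this split by itself gives the 34 lower ratios. Of the 10 peaks with the highest fold enrichment 2 were among the 34, and of the 10 with the highest pileup 7 were. Both top sets shared 5 peaks. The bab1 end peak ranked 7 by fold enrichment and 1 by pileup, where its 251 reads exceeded those of 99.8% of all peaks.

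With neighbours up to 3000 bp apart placed in 1 group, the 62 summits formed 15 groups. Of these, 10 groups of at least 3 summits held 54 of the peaks (87.1%), and by the same distance 76.6% of all peaks lay in such groups. The largest held 10 summits over 10.9 kb in the upper part of bab1 (positions 1082136 to 1093054), between 18953 and 8035 bp from the upper end of the gene, with fold enrichments up to 2.44. The next group towards that end held 5 summits, among them the bab1 end peak. The median distance between neighbouring summits was 1261 bp in the window and 1685 bp over all peaks, and 34.4% and 32.5% of distances were under 1000 bp.

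The longest stretch without a summit was inside bab1, 13.9 kb between the summits at 1042474 (chr3L:1042411-1042633, fold enrichment 1.70) and 1056398, the widest peak. A distance at least as long was found between 3.75% of all neighbouring summits. The second was inside bab2, 11.9 kb between 1153278 and 1165162, a length reached by 4.67%. Both genes thus had a long empty stretch in the interior.

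With all peaks, the density of either bab gene was somewhat above the median of protein-coding genes of like span. bab1 had 24 interior summits, 3.71 per 10 kb, and 359 of 563 protein-coding genes of 0.5 to 2 times its span (63.8%) had a lower density. bab2 had 14, or 3.80 per 10 kb, and 596 of 950 such genes (62.7%) were lower. The medians of these genes were 2.64 and 2.96 per 10 kb. With only peaks of −log10 q of at least 10 the density was 2.01 in bab1 and 0.814 in bab2, and the share of genes with a lower density was 64.3% for bab1 and 34.3% for bab2. With the 17359 peaks of highest −log10 q the densities were 2.01 and 0.543, and these shares were 81.3% and 34.0%. The rank of either gene thus changed with the set of peaks counted, upwards for bab1 in the strictest set and downwards for bab2 in both. The density of bab1 was the same in both stricter sets, so its rise in rank between them came from lower densities in other genes. The fold enrichment at the gene end was higher than at bab1 in 207 of 436 of these genes with a gene-end peak, and higher than at bab2 in 420 of 746.

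**Figure D4:**
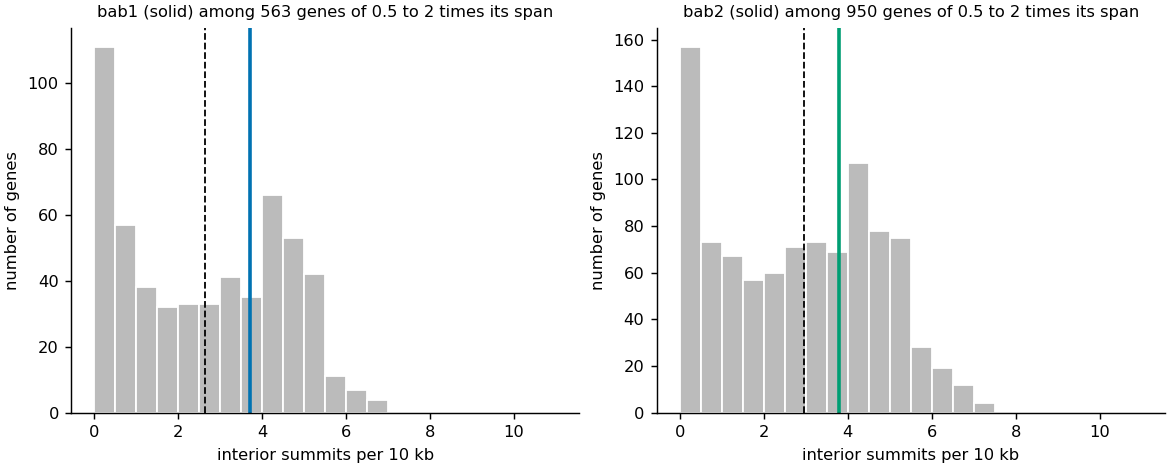
Number of protein-coding genes (vertical axis) by interior summits per 10 kb of gene span (horizontal axis), for genes of 0.5 to 2 times the span of bab1 (left) or bab2 (right). The solid line marks the bab gene, at 3.71 and 3.80, and the dashed line the median, at 2.64 and 2.96.

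The genes nearest to bab1 in interior density were bi, which encodes the T-box factor Optomotor-blind (3.71 per 10 kb), Syp (3.70), the axon guidance receptor gene robo2 (3.72), B4 (3.70) and CAP (3.68). Nearest to bab2 were the bromodomain gene fs(1)h (3.81), Hers (3.81), the Sprouty gene sty (3.78), l(1)G0196 (3.82) and Myc (3.78). Likeness here was the difference in this density alone, in 1 peak list, among the 563 and 950 genes. Of these 10 genes CAP had no gene-end peak, and the others had gene-end fold enrichments from 1.94 at Syp to 3.72 at Hers. The values were 2.54 at bi, 2.44 at robo2 and 2.24 at B4, and 2.13 at fs(1)h, 1.98 at sty, 2.44 at l(1)G0196 and 2.60 at Myc.

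Windows built in the same way around other sets of neighbouring transcription factor genes gave like median fold enrichments and more peaks per 10 kb. The Iroquois genes ara, caup and mirr had 67 peaks, 4.48 per 10 kb, with a median fold enrichment of 1.94. The engrailed and invected pair had 40, or 5.42 per 10 kb (median 1.98), and the kni and knrl pair 53, or 4.48 per 10 kb (median 1.98). The bab window had 3.85 per 10 kb and a median of 1.91, the lowest of the 4 in both. The windows differed in length, at 161 kb for bab, 150 kb for Iroquois, 118 kb for kni and knrl and 73.7 kb for engrailed and invected. The differences were not tested.

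Among other pigmentation genes, the regulators all had open chromatin at a gene end. These were 7 genes of abdominal pattern or pigmentation, Abd-B, abd-A, dsx, bi, wg, dpp and pdm3, with gene-end fold enrichments from 2.04 to 3.97. Of all protein-coding genes 65.6% had a gene-end summit, and of the genes of like span to bab1 and to bab2 77.4% and 78.5% did. The 7 genes span 9107 to 72792 bp and were not matched by span. The Hox gene Abd-B, which sets posterior segment identity, was at 2.22, and abd-A at 3.72. The sex determination gene dsx, whose male and female products act in opposite directions on bab, was at 2.49, between bab2 and bab1. The Wnt ligand gene wg was highest, at 3.97, and the BMP ligand gene dpp lowest, at 2.04. In each gene's span with 10 kb on either side these regulators had 3.13 to 4.86 summits per 10 kb, bab1 had 4.13 and bab2 3.17, and the median of all protein-coding genes was 3.29.

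Of 10 genes that make or modify cuticle pigment, 8 had a gene-end summit (80%, against 65.6% of all protein-coding genes). The tyrosine hydroxylase gene ple was highest at 3.91, and the dopa decarboxylase gene Ddc was at 2.76. The gene y, required for black pigment, was at 2.44, the gene e, whose product makes N-β-alanyldopamine for tan cuticle, at 2.48, and the aspartate decarboxylase gene b, which supplies β-alanine, at 2.62. Pu, which encodes GTP cyclohydrolase for the cofactor of tyrosine hydroxylase, was at 2.47, and the dopachrome conversion enzyme genes yellow-f and yellow-f2 were at 1.63 and 1.65. The hydrolase gene t, which acts opposite to e, had 0.781 summits per 10 kb of its span and flanks, the lowest of these genes. It had no gene-end summit and 1 summit in its interior. The N-acetyltransferase gene speck also had none at its ends, but 5 summits in its interior. bab1 and bab2, at 2.64 and 2.48, lay on either side of the median of the other pigmentation genes with a gene-end peak, 2.49, and near that of all genes, 2.47.

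**Figure D5:**
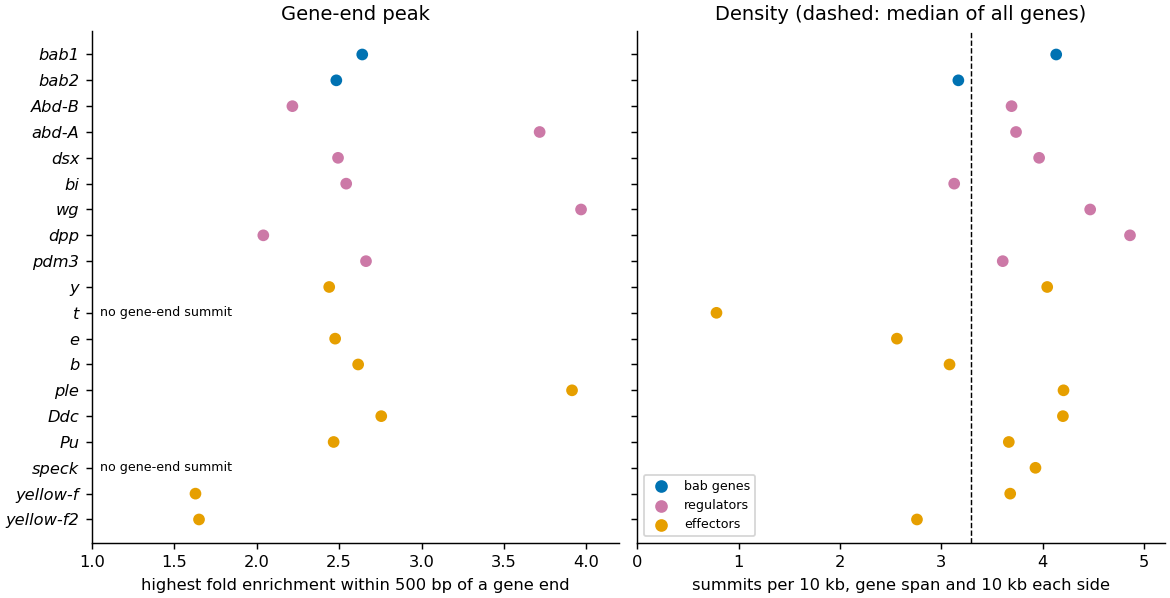
Highest fold enrichment within 500 bp of a gene end (left, ratio) and summits per 10 kb of the gene's span with 10 kb on either side (right) for bab1, bab2, 7 regulators and 10 pigment effector genes (1 gene per line). bab1 and bab2, at 2.64 and 2.48, lie within the range of the other genes, 1.63 to 3.97, and t and speck have no gene-end summit.

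Relatives of bab with a BTB domain were mixed. Of 14 other BTB transcription factor genes, 10 had a gene-end summit (71.4%, against 65.6% of all genes). Among the genes of like span to bab1 and to bab2 this share was 77.4% and 78.5%. The 14 genes span 4098 to 131314 bp and were not matched by span, so no excess can be read from their share. The highest were chinmo, a temporal identity factor, at 3.75 and ab at 3.43. The gene fru, a sex-specific regulator of behaviour, was the lowest at 1.53, and rib, mod(mdg4), the GAGA factor gene Trl and lolal had none. psq, which like bab1 and bab2 encodes a DNA-binding domain of the Pipsqueak type, was at 3.00 with 4.79 summits per 10 kb of its span and flanks. The corresponding densities of bab1 and bab2 were 4.13 and 3.17, and those of the 14 genes ran from 2.19 to 5.06.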

How the data were processed

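ATAC-seq, which marks open chromatin by transposase insertion, was done by an Omni-ATAC procedure with 0.1% IGEPAL, per the labels' protocols. BWA, SAMtools, Picard, MACS2 and dm6 are named in the submitters' processing notes. Their versions and parameters, how duplicates were treated and how replicates were combined were not given in the sources used here. The deposited narrowPeak list gives per peak a fold enrichment (a ratio), −log10 p, −log10 q and a display score, which was not used. The 3 replicates share these values, so depth per replicate is unknown.

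Whole pileups were recovered by solving fold enrichment = (pileup + 1) / (background + 1) together with −log10 p as the Poisson tail above the pileup. A solution within 0.002 was found for all 34718 peaks, with a largest residual of 0.00014, and the step was tested on simulated data. Whether these definitions match the settings of the caller was judged from that fit alone. Intervals of the pileup are exact 95% Poisson intervals, and that of the median fold enrichment is an exact binomial interval over peaks.

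Gene spans came from the RefSeq table of the Release 6 assembly, the assembly of dm6, and coordinates are 1-based. Of 75 listed names 74 matched by current symbol and 1 by an older one (AANAT1, now speck); nanos was entered by its current symbol because its older one fits more than 1 gene. A gene end means within 500 bp of either end of a gene's span, and interior summits lie farther from both ends of their own gene. Density used the gene span. The members and lists were chosen with earlier results of these data known. Named peaks are the 10 of highest fold enrichment, those at gene ends, the 3 widest, the 3 lowest and those bordering the longest empty stretch, and named genes are those meeting the window, the lists and the 5 most alike in density. Other peaks, the grouping distance, the split of each gene at its middle, the background stretches and the loci compared were chosen after the values were seen. No sequence was used, and the planned motif search was not run. Alternatives were stricter peak sets, other gene-end distances, other flanks and other grouping distances. Python 3.11.15, numpy 2.4.6, pandas 2.3.3 and scipy 1.17.1 were used.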

Additional observations from a re-analysis of the deposited data

How the results depend on the processing

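Of 35 recomputed values, 25 stayed within 1.5 times the reported count or density, or within its 95% interval. Stricter sets of peaks moved 9 of the others, and a longer gene-end distance moved 1. Not all of the 25 could have moved. The interior summits closest to an end lay 2342 bp away in bab1 and 2233 bp in bab2, beyond every gene-end distance used. The end peaks, at 173 and 19 bp, lay within every such distance. The share of the 14 BTB genes with a gene-end peak was 57.1% at the shorter distance and 85.7% at the longer. Both counted as within the limits, so the tally is no measure of stability. With −log10 q of at least 10 the window held 32 peaks, with densities of 2.01 per 10 kb inside bab1 and 0.814 inside bab2, and 34.3% of genes of like span lay below bab2. With the 17359 peaks of highest −log10 q it held 29 peaks, with densities of 2.01 and 0.543, and 81.3% of genes of like span lay below bab1 and 34.0% below bab2. At a given pileup −log10 q rises as the background falls, so these sets also select on background. With gene ends of 1000 bp the highest bab2 gene-end peak became the one 801 bp away, at 3.75. The median height relative to all peaks was 0.951 by fold enrichment and 1.01 by pileup, on either side of 1. The value by pileup lay within the interval of the value by fold enrichment, which treats neighbouring peaks as independent. Grouping distances of 2000 and 5000 bp, chosen after seeing the data, gave 21 and 10 groups. Leaving out a replicate could not be done on the merged list. No paired analysis was possible because the list holds no column per replicate and there is 1 group.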
